A study of Mus musculus with 62 samples.

Results

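The mitochondrial ribosomal protein genes were followed in 2 brain regions of chronically stressed and unstressed mice, the nucleus accumbens (NAc) and the prefrontal cortex (PFC). The members were all rows of the count table whose Ensembl identifier carries a mouse symbol that starts with Mrpl or Mrps followed by a digit, which gave 75 of the 11121 counted genes. Their symbols place 25 in the small subunit of the mitochondrial ribosome and 50 in the large subunit, counting Mrps18a and Mrps30 as large subunit proteins in spite of their names. The symbol pattern matched 83 genes of the annotation, and the 8 that had no row were Mrpl53, Mrps18b, Mrps36 and the pseudogenes Mrpl23-ps1, Mrpl48-ps, Mrps36-ps1, Mrps36-ps2 and Mrps36-ps3.

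Mitochondria hold a ribosome of their own, which makes only the few respiratory chain proteins that mitochondrial DNA (mtDNA) encodes. Its RNAs come from mtDNA, whereas its proteins are made from nuclear genes in the cytosol and imported, so that both genomes must supply parts of one machine. Some of these proteins descend from bacterial ribosomal proteins, and others were added during the evolution of mitochondria. Neurons rely heavily on oxidative phosphorylation (OXPHOS), and defects in several of these proteins cause severe mitochondrial disease in humans.

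The study profiled both regions by BRB-seq, a 3′ RNA-seq method in which every sample is barcoded during oligo-dT primed reverse transcription and samples are then pooled. All mice were wild-type C57BL/6j, aged 15 weeks, and no transgene or deletion was carried by any group. PFC_CTR (n = 15 libraries) and Nac_CTR (n = 16) came from unstressed controls (CTR), and PFC_mCRS (n = 15) and Nac_mCRS (n = 16) from mice put through a multimodal form of chronic restraint stress (mCRS). The comparisons address how chronic stress alters transcription in each region, and which PFC and NAc libraries share a mouse is not stated.

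Library totals ran from 945286 to 4857359 counts. The summed counts (CPM, scaled to a total of 1000000 per library) of 8 cortical excitatory neuron markers, all 8 counted, had medians of 5546 in PFC_CTR and 4182 in PFC_mCRS against 1002 in Nac_CTR and 1094 in Nac_mCRS. The summed level of 9 striatal projection neuron markers had NAc medians of 5329 and 5000 CPM against 543 and 680 CPM in PFC. The library labelled Nac_CTR replicate 7 reached only 550 CPM for the striatal markers, and Nac_mCRS replicate 10 held 22889 CPM of choroid plexus markers. The main results that rest on NAc are therefore given with and without these 2 libraries. In PFC, stressed libraries also detected fewer genes (82.3% ± 6.22 against 87.1% ± 4.42 of genes, SD) and had more mtDNA counts (16.04% ± 3.64 against 12.88% ± 3.004 of counts, SD). Fits with a library's share of detected genes in the model, and with library sizes without mtDNA genes, were among the alternatives run. Beyond these fits, the part these differences play in the results was not tested.

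The promoters of the members come first, because these genes lie scattered over 17 chromosomes and have to supply the parts of 1 particle. RefSeq windows of 300 bases on GRCm38.p6, from 250 bases before to 50 bases after the annotated start, were found for 66 of the 75 members. Exact letters were searched on both strands for 3 motifs of factors known to bind at promoters of nuclear mitochondrial genes. These were GCGCATGC for NRF1, the nuclear respiratory factor, CCGGAAGT for the ETS family, which includes GABPA (NRF2), and AAGATGGCG for YY1. A gene with several windows was taken to hold a motif if any window did. There were 72 windows for the 66 members, 11472 for 8795 counted genes and 32851 for all 27025 genes. The ETS letters were present in 12 of the 66 members (18.2%), against 4.31% of all 27025 genes and 9.19% of the counted genes. The YY1 letters were present in 8 members (12.1%), against 1.64% and 3.84%. The NRF1 letters were present in 7 members (10.6%), against 3.05% and 6.23%.

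At least 1 of these 3 motifs was present in 25 members, and 2 of them were present in Mrpl33 and Mrps27. Of 32 matches, 26 lay between 100 bases before the start and the end of the window. The median position relative to the start was -49.5 for NRF1, -27 for ETS and 19.5 for YY1, so that the YY1 letters lay mainly just inside the transcribed part. The general promoter letters ATTGG (the CCAAT box) and GGGGCGGGG (SP1) were present in 37.9% and 16.7% of members. They were present in 41.1% and 12.9% of all genes with a window and in 42.8% and 26.2% of the counted genes. The median GC content of member promoters was 58.8%, between the 52.7% of all promoters and the 61.3% of counted genes. The letters of NRF1 nearly equal those of their other strand, and in Mrpl32, which has 4 matches at -87, -85, -66 and -22, the first pair overlaps. A match is a description of the sequence, not a binding site.

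The sequences shown are those with 2 motifs, that of Mrps11 from a head to head pair, and those of the genes on which the expression results turn. Capitals mark the NRF1, ETS or YY1 letters on either strand, and each sequence runs 5′ to 3′ on the gene's own strand. Mrpl33 (chr5:31613701-31614000, plus strand) codes for a small protein of the large subunit and holds NRF1 letters at -12 and ETS letters at -3. Mrps27 (chr13:99344536-99344835, plus strand) codes for a small subunit protein and holds ETS letters at -49 and YY1 letters at 15.
Mrpl33: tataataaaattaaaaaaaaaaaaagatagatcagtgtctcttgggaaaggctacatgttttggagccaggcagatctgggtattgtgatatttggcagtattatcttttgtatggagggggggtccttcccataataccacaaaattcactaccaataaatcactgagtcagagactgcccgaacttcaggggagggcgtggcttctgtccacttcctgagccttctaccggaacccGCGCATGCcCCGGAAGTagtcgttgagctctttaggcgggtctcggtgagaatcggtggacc
Mrps27: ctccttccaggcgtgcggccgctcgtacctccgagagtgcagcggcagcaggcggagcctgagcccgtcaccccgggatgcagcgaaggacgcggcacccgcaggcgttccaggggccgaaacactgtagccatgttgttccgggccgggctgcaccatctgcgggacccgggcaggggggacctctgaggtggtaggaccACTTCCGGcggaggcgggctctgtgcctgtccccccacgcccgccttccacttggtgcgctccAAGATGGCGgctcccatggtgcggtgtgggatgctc

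The genes Mrps11 and Mrpl46, for a small and a large subunit protein, start on opposite strands of chromosome 7 and overlap at their 5′ ends. Mrpl46 lies at chr7:78775236-78783531 on the minus strand and Mrps11 at chr7:78783119-78792989 on the plus strand. The window of Mrps11 (chr7:78782881-78783180, plus strand) overlaps that of Mrpl46 and holds YY1 letters at -108.
Mrps11: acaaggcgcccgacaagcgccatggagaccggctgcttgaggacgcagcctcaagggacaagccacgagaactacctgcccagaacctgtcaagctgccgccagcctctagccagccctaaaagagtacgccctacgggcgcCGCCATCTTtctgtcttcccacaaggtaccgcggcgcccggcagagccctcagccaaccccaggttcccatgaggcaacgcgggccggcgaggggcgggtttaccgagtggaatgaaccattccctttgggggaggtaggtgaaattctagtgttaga

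The genes named for stress below include Mrpl30, Mrpl43, Mrps22 and Mrpl44. The window of Mrpl43 (chr19:45006393-45006692, minus strand) holds ETS letters at -12, and that of Mrps22 (chr9:98601630-98601929, minus strand) holds ETS letters at -11. The window of Mrpl30 (chr1:37890227-37890526, plus strand) holds none of the 3 motifs, nor does that of Mrpl44 (chr1:79775768-79776067, plus strand) or of Mrpl47 (chr3:32736706-32737005, minus strand). Mrpl47 is the member with the smallest p for a difference between regions over all libraries.
Mrpl43: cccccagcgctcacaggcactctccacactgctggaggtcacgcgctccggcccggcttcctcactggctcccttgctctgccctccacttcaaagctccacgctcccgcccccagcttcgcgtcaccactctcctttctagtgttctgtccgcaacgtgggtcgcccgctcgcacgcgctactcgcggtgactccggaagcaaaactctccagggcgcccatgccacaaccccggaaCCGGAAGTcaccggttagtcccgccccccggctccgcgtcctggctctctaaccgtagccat
Mrps22: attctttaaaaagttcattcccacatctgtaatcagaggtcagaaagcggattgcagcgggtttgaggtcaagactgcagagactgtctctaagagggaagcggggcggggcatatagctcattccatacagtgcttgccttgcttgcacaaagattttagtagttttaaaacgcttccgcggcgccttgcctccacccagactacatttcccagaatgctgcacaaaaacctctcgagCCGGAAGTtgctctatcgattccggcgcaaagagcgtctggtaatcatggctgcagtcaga
Mrpl30: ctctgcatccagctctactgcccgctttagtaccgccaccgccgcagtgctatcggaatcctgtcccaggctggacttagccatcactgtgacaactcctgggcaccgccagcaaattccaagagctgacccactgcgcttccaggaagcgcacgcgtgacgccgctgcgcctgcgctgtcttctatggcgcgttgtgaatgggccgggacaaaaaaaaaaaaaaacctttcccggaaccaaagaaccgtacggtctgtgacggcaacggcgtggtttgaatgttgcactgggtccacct
Mrpl44: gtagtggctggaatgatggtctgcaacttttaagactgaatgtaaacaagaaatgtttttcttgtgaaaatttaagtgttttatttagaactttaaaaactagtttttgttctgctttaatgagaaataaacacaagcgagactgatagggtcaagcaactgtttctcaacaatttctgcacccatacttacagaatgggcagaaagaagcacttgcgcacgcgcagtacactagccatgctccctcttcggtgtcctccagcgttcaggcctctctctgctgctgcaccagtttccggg
Mrpl47: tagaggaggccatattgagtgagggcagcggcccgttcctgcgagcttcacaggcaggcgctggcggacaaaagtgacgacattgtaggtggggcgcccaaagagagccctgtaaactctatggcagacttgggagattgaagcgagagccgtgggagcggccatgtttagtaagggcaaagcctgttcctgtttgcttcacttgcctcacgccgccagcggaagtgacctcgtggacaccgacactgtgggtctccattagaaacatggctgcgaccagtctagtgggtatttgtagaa

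A start on the opposite strand within 1000 bases upstream was annotated for 17 of the 75 members (22.7%), against 1090 of 11119 counted protein-coding genes (9.80%). Among them, Mrps12 is paired with Sars2, the mitochondrial seryl-tRNA synthetase, over 172 bases, and Mrpl49 with Fau, which encodes a cytosolic ribosomal protein, over 59 bases. Mrpl30 is paired with Mitd1 over 66 bases, Mrpl32 with the proteasome gene Psma2 over 75 bases, and Mrps27 with Ptcd2 over 81 bases.

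All members together had 608277 counts, which was 0.385% of the counts of the series, and the median count of a member per library ranged from 2 to 276.5. A count of 0 made up 3.72% of the members' values, against 12.9% over all genes, and 27 members were never at 0. The most counted members were Mrpl30 (18782 counts over all libraries), Mrpl42 (17129) and Mrpl20 (17128). Mrpl30 and Mrpl20 are large subunit proteins with bacterial counterparts, whereas Mrpl42 has none. The least counted were Mrpl23 (1160 counts, at 0 in 25 libraries), Mrpl22 (2193 counts, at 0 in 14) and Mrps28 (2633 counts, at 0 in 5). Mrpl22 and Mrpl23 code for proteins at the exit of the peptide tunnel, and Mrps28 for a small subunit protein. Counts were not divided by length, and in a 3′ method they also depend on the transcript's end, so that these orders are of counts and not of molecules.

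The share of a library's counts that went to all 75 members was similar in the 4 groups. It was 0.378% ± 0.042 in PFC_CTR and 0.388% ± 0.046 in PFC_mCRS (SD, n = 15 each). In NAc it was 0.376% ± 0.045 in Nac_CTR and 0.396% ± 0.043 in Nac_mCRS (SD, n = 16 each). The unstressed and stressed libraries overlapped over nearly their whole ranges. In PFC they ran from 0.326% to 0.475% unstressed against 0.306% to 0.503% stressed. In NAc they ran from 0.319% to 0.466% unstressed against 0.329% to 0.492% stressed. The highest NAc value was that of Nac_mCRS replicate 10. The mean difference between mCRS and CTR was 0.0107 percentage points in PFC and 0.0204 in NAc, each smaller than the SD of a group, and 0.0128 in NAc without the 2 libraries that stood apart. As a share of counts outside mtDNA genes the difference was 0.0293 percentage points in PFC and 0.0244 in NAc.

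The balance between subunits was also described for each library. The ratio of small to large subunit counts was 0.461 ± 0.076 in PFC_CTR, 0.416 ± 0.058 in PFC_mCRS, 0.481 ± 0.090 in Nac_CTR and 0.468 ± 0.104 in Nac_mCRS (SD). The groups overlapped, with single libraries between 0.307 and 0.690. No test was made of either quantity, since each is a score over the members.

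**Figure D1:**
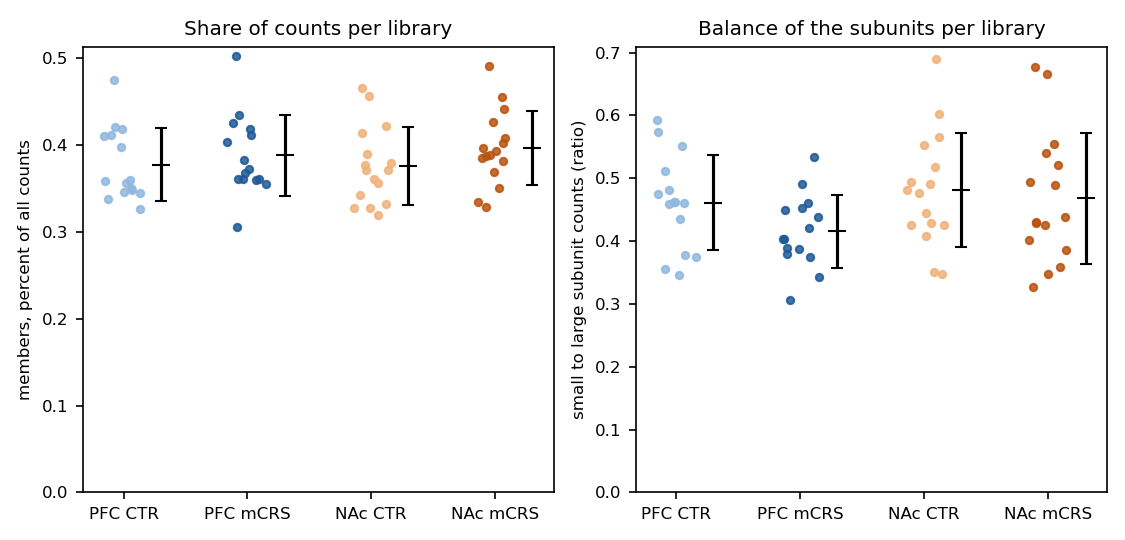
Share of counts taken by the 75 members in percent of all counts, and ratio of small to large subunit counts, with 1 point for each library, grouped by region and treatment, and bars for the mean and SD. The groups overlap in both, with mean shares from 0.376% to 0.396%.

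Stress in PFC was tested first. No member passed a false discovery rate (FDR) of 0.05 in PFC, and no gene of the 8916 tested did (0%). Of the 74 members tested, 47 had a log2 fold change above 0 (63.5%, against 49.3% of all genes). Their median was 0.12, against -0.01 over all genes. The members' mean log2 CPM per library (prior count 2) leaned the other way, at 4.99 ± 0.31 in PFC_CTR and 4.905 ± 0.27 in PFC_mCRS (SD). In NAc it was 4.95 ± 0.45 in Nac_CTR and 4.98 ± 0.43 in Nac_mCRS (SD), and no test was made of it. By unadjusted p below 0.05, Mrpl30 was higher in mCRS mice (1 of 74, 1.35%, against 2.12% of all genes) and Mrpl43 was lower (1 of 74, 1.35%, against 1.38%). Both shares were under the background. With a library's share of detected genes in the model, the median of the members was -0.01. Mrpl23 did not pass the filter on low counts. All fold changes come from the quasi-likelihood test of edgeR, with Benjamini-Hochberg adjustment over all genes tested.

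Mrpl30, a large subunit protein with a bacterial counterpart, lies at chr1:37890477-37898535. Its lowest, median and highest levels were 46.8, 109 and 226.8 CPM in PFC_CTR and 82.1, 157 and 357 CPM in PFC_mCRS. The stressed libraries lay higher at each point, but the groups overlapped over much of their range. The log2 fold change was 0.59 (SE 0.26, unadjusted p = 0.0307, adjusted p = 0.9997). With a library's share of detected genes in the model it was 0.44 (p = 0.117), and p rose to at most 0.0786 on leaving out PFC_CTR replicate 5 or 9 or PFC_mCRS replicate 2 or 11.

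Mrpl43 codes for a large subunit protein without a bacterial counterpart and lies at chr19:45004829-45006442. Its lowest, median and highest levels were 33.2, 91.5 and 181 CPM in PFC_CTR and 7.69, 44.1 and 111 CPM in PFC_mCRS. The stressed group lay lower at all 3 points, with wide overlap of the groups. The log2 fold change was -0.80 (SE 0.38, unadjusted p = 0.0418, adjusted p = 0.9997). It was -0.77 (p = 0.0669) with that covariate, and leaving out any 1 of 12 of the 30 libraries took p above 0.05, to at most 0.0856 without PFC_CTR replicate 11.

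The other most counted members did not pass. Mrpl42 had a log2 fold change of 0.58 (SE 0.31, p = 0.0679), or 0.12 (p = 0.702) with a library's share of detected genes in the model, and Mrpl20 of 0.43 (SE 0.29, p = 0.145). The largest positive estimate was that of Mrps33, a small subunit protein, at 1.56 (SE 0.79, p = 0.0520), and it was chosen after its values were seen. Its levels ran from 0 to 72.3 CPM in PFC_CTR (median 13.9) and from 0 to 152 CPM in PFC_mCRS (median 19.0), so that the medians differed much less than the upper ends. Mrps18a, a large subunit protein in spite of its symbol, gave 1.01 (SE 0.54, p = 0.0686), with medians of 26.1 CPM in PFC_CTR and 60.6 CPM in PFC_mCRS. At the other end stood Mrps10, a small subunit protein with a bacterial counterpart, at -1.10 (SE 0.70, p = 0.122), with medians of 52.1 and 12.6 CPM. Mrps18a and Mrps10 were likewise chosen after their values were seen. The estimates of the members tested thus ran from -1.10 to 1.56, and both extremes belonged to genes with libraries at or near 0.

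By subunit, 35 of 49 large subunit members lay above 0 in PFC, with a median of 0.14, and 12 of 25 small subunit members did, with a median of 0.00. Of 45 members with a bacterial counterpart 28 were above 0 (median 0.14), and of 29 without one 19 were (median 0.09). Of the 9 members in the central protuberance, the knob of the large subunit, 8 were above 0 (median 0.14), and of the 9 tested at the rim of the exit tunnel 7 were (median 0.12). Of the 4 tested in the stalk, which recruits translation factors, 2 were above 0. Above 0 in PFC were 63.5% of all members and 49.3% of all genes tested, and whether a list differs from these was not tested. None of these lists had a member past an FDR of 0.05.

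Lists of respiratory chain genes and of cytosolic ribosomal protein genes give a scale for these values. All 7 counted mtDNA protein genes were above 0 in PFC, with a median of 0.42 and an unadjusted p below 0.05 for all 7. Of 78 cytosolic ribosomal protein genes, 66 were above 0 (median 0.27). At an unadjusted p below 0.05, 27 of them were higher and 1 was lower. Of 76 nuclear OXPHOS subunits, 58 were above 0 (median 0.20) and 18 were higher at that threshold. Of all genes tested in PFC, 2.12% were higher and 1.38% lower at it. Whether the members differ from these lists was not tested.

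In NAc, again no member passed an FDR of 0.05, against 0.00986% of 10141 genes. Of 74 members 46 lay above 0 (62.2%, against 49.3% of all genes). Their median was 0.16 against -0.01 over all genes, and it was 0.12 without the 2 libraries that stood apart. At an unadjusted p below 0.05, Mrps22 and Mrpl44 were higher in mCRS mice (2 of 74, 2.70%, against 0.986% of all genes) and none was lower (against 1.06%). The fit again left out Mrpl23.

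Mrps22, a small subunit protein without a bacterial counterpart, lies at chr9:98588730-98601660. Its lowest, median and highest levels were 0, 12.02 and 50.7 CPM in Nac_CTR and 1.39, 52.3 and 122 CPM in Nac_mCRS. The median of the stressed libraries lay above the highest control library, though the ranges overlapped. The log2 fold change was 1.57 (SE 0.60, unadjusted p = 0.0117, adjusted p = 0.99995), and it was 1.77 (p = 0.00578) without the 2 libraries that stood apart.

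Mrpl44, a large subunit protein near the exit of the peptide tunnel, lies at chr1:79776018-79781445. Its lowest, median and highest levels were 0.667, 28.2 and 96.3 CPM in Nac_CTR and 4.11, 66.5 and 201 CPM in Nac_mCRS. Stressed libraries were mostly high, and all but a few fell within the range of the controls. The log2 fold change was 1.01 (SE 0.44, unadjusted p = 0.0259, adjusted p = 0.99995). It was 1.07 (p = 0.0169) without those 2 libraries, and p was 0.0733 without Nac_mCRS replicate 4.

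Mrpl30 had a log2 fold change of 0.42 in NAc (p = 0.142), with levels from 38.9 to 146 CPM in Nac_CTR and from 5.29 to 203 CPM in Nac_mCRS. Leaving out single libraries gave values from 0.35 to 0.51 (p from 0.0432 without Nac_mCRS replicate 3, its lowest library, to 0.226 without Nac_mCRS replicate 10). The other most counted members were near 0 in NAc, at 0.03 for Mrpl42 and -0.14 for Mrpl20. Mrpl20 had medians of 94.6 CPM in Nac_CTR and 84.7 CPM in Nac_mCRS, where PFC had 102 and 131 CPM.

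The NAc estimates ran from -1.04 to 1.57. The lowest was that of Mrps2, a small subunit protein with a bacterial counterpart, at -1.04 (SE 0.53, p = 0.0551), named after its values were seen. Its medians were 40.6 CPM in Nac_CTR and 18.8 CPM in Nac_mCRS, and in PFC its value was -0.49 (p = 0.502).

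The members with an unadjusted p below 0.05 in 1 region had the following values in the other, where no such p was found. Mrps22 was at 0.90 in PFC (SE 0.72, p = 0.221), with medians of 18.2 CPM in PFC_CTR and 40.2 CPM in PFC_mCRS. Mrpl44 was at 0.05 in PFC (SE 0.66, p = 0.937), with medians of 52.7 and 48.5 CPM. The interaction was -0.68 for Mrps22 (p = 0.463) and -0.97 for Mrpl44 (p = 0.233), so that a difference between the regions was not shown for either.

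The least counted members could hardly be judged. Mrpl22 gave 0.12 in PFC (SE 0.95) and 0.21 in NAc (SE 0.83), and Mrps28 -0.73 (SE 0.82) and 0.19 (SE 0.70). The highest level of Mrpl23 in any library was 66.5 CPM, and its group medians lay between 0 and 3.39 CPM.

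By list, 22 of 29 members without a bacterial counterpart lay above 0 in NAc (median 0.23), and 24 of 45 with one (median 0.01). Of the 9 members tested at the rim of the exit tunnel, where the new chain leaves toward the inner membrane, 8 lay above 0 (median 0.36). In the central protuberance 6 of 9 did (median 0.01), and in the stalk 2 of 4. Above 0 in NAc were 62.2% of all members and 49.3% of all genes tested, and whether a list differs from these was not tested. The medians in NAc were 0.07 for cytosolic ribosomal proteins, 0.06 for nuclear OXPHOS subunits and 0.06 for mtDNA protein genes.

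**Figure D2:**
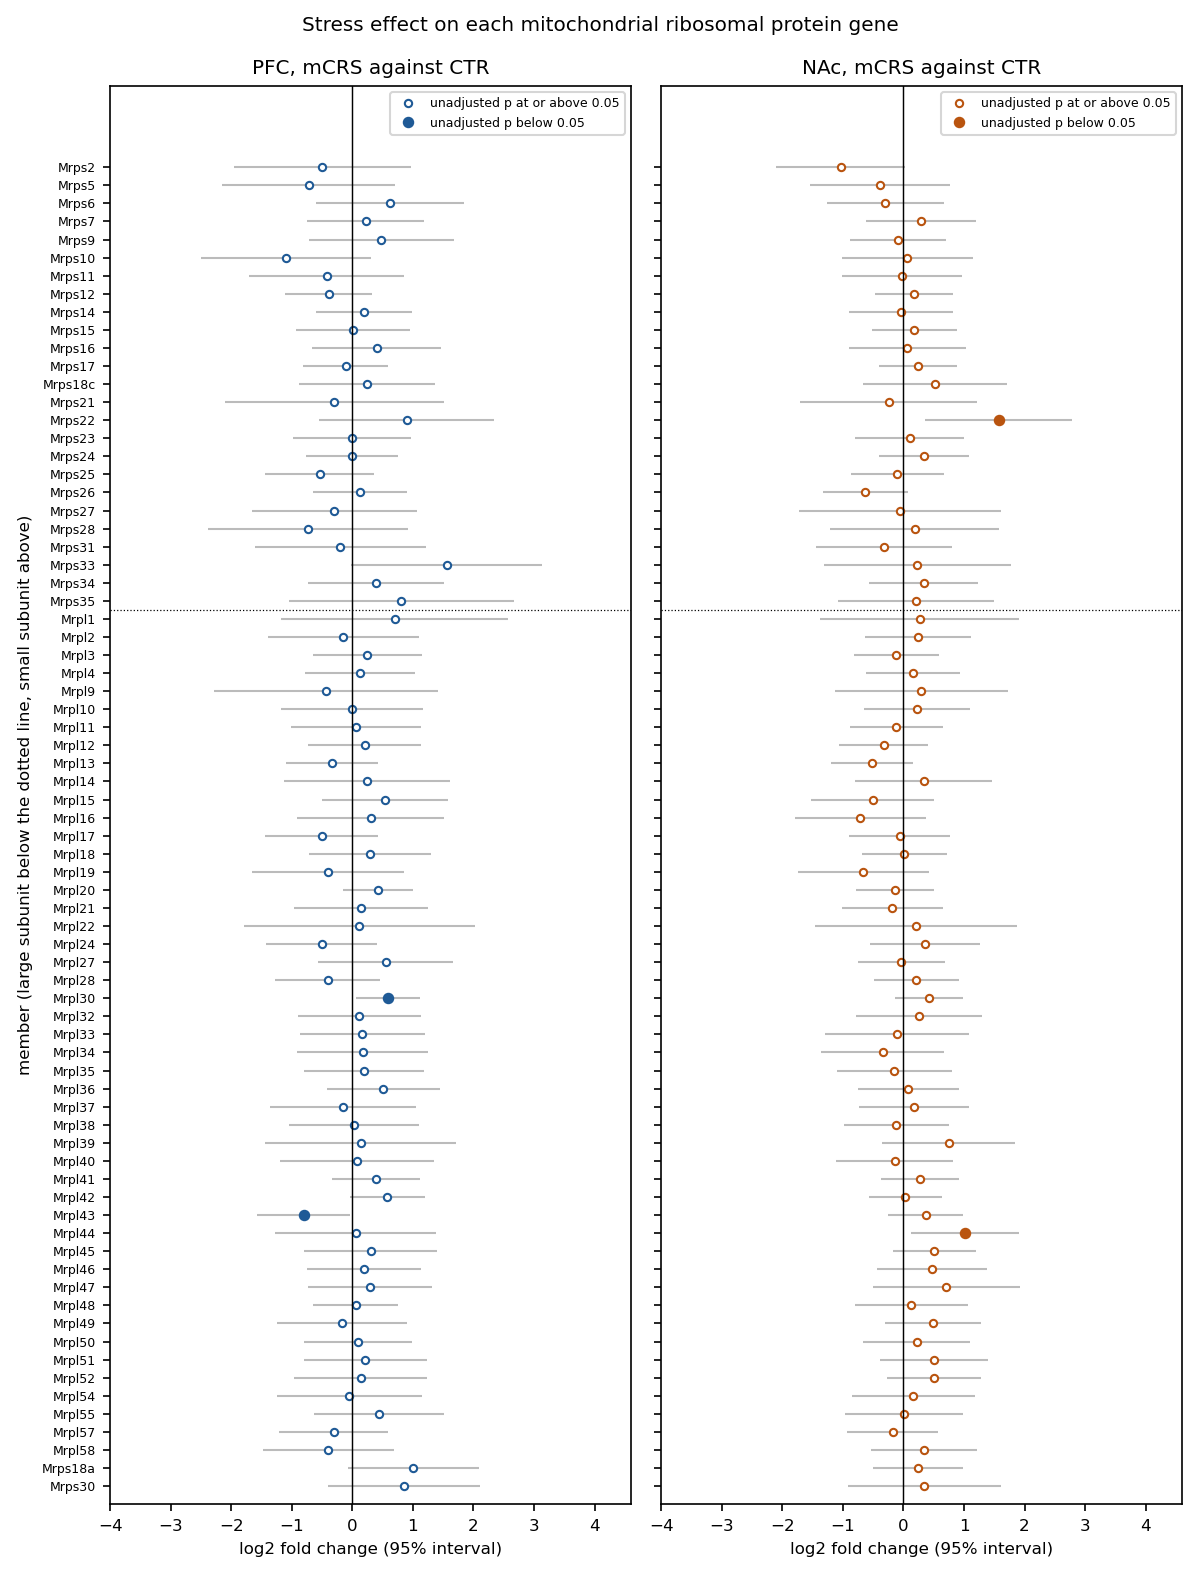
Log2 fold change of mCRS against CTR for each of the 74 members tested, in PFC and NAc, with 95% intervals, and filled points for an unadjusted p below 0.05. Most intervals include 0, and the filled points are Mrpl30 and Mrpl43 in PFC and Mrps22 and Mrpl44 in NAc.

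The precision of these comparisons was limited. The 95% intervals reached a median of 1.08 log2 units to either side of the estimate in PFC, from 0.53 for Mrpl30 to 1.91 for Mrpl22, and 0.90 in NAc, from 0.56 to 1.67. Only 8 of 74 intervals in PFC and 23 of 74 in NAc lay wholly within 1 log2 unit of 0. The other intervals reached a change of 2-fold or more, and all of them but those of 2 members in each region also held 0.

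**Figure D3:**
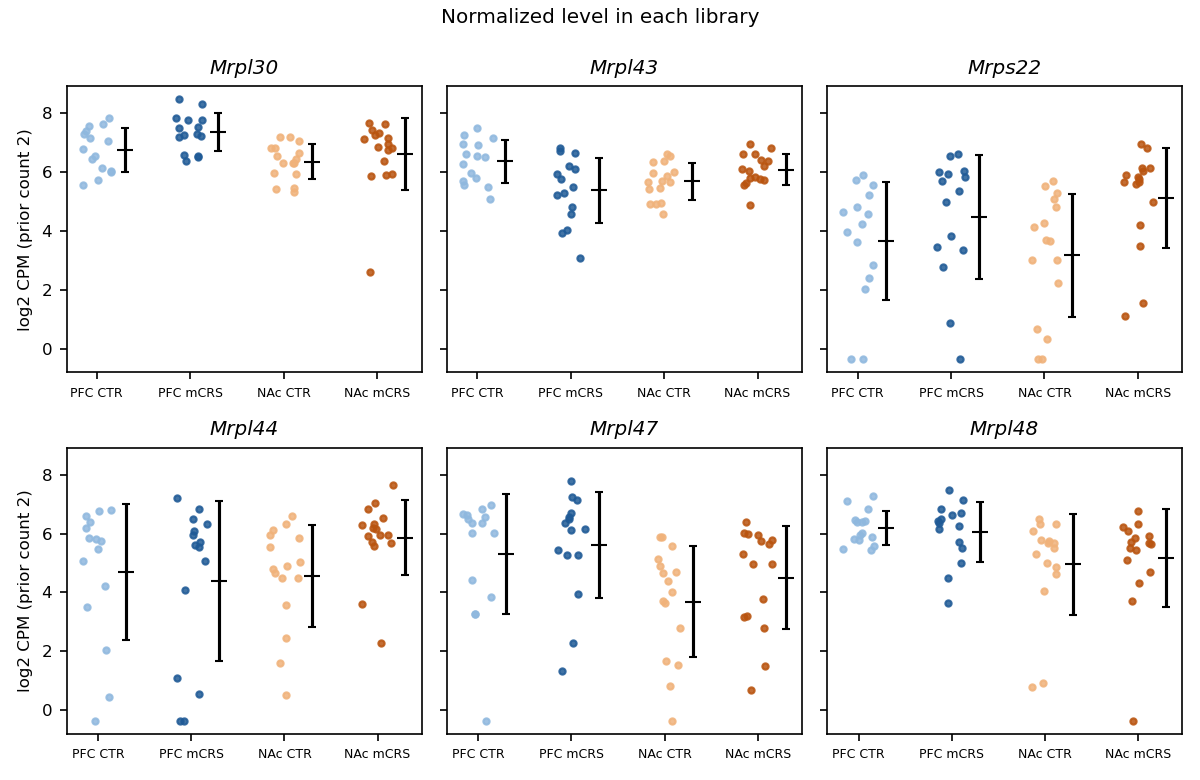
Log2 CPM (prior count 2) in each library of Mrpl30, Mrpl43, Mrps22, Mrpl44, Mrpl47 and Mrpl48, by region and treatment, with bars for the mean and SD. Every member shows overlap between stressed and unstressed libraries of a region.

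The 2 regions gave weakly related values. Of the 74 members tested in both regions, 30 were above 0 in both (40.5%, against 24.6% of 8716 genes) and 11 were below 0 in both. The sign was the same for 41 members (55.4%), against 50.9% of all genes. Across members, which are not independent replicates and share libraries, Pearson's r between the PFC and NAc log2 fold changes was 0.22, and it was 0.0007 across all genes.

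The interaction of stress and region asked whether the response differed between PFC and NAc. No member passed an FDR of 0.05, against 0.00907% of 11025 genes, and the median of the 75 members was -0.07. Of them 35 were above 0 (46.7%, against 48.9% of genes). The median was 0.03 without the 2 libraries that stood apart. At an unadjusted p below 0.05, Mrpl43 had a lower response in PFC than in NAc (1 of 75, 1.33%, against 1.64% of all genes), and no member had a higher one (against 1.45%). Its interaction was -1.17 (SE 0.47, 95% interval -2.10 to -0.23, p = 0.0149), or -1.23 (p = 0.0125) without the 2 libraries that stood apart. In NAc its levels ran from 23.3 to 96.4 CPM in Nac_CTR (median 50.5) and from 29.0 to 122 CPM in Nac_mCRS (median 66.4), so that the medians differed in the opposite sense to PFC. The next smallest p belonged to Mrpl15, at 1.04 (p = 0.160), and Mrps26, at 0.74 (p = 0.164). Mrpl15, a large subunit protein with a bacterial counterpart, had medians of 45.8 CPM in PFC_CTR and 58.9 CPM in PFC_mCRS, and of 42.0 and 26.6 CPM in NAc. Mrps26, a small subunit protein without one, had medians of 62.8 and 91.3 CPM in PFC and of 76.5 and 51.3 CPM in NAc. For both genes the medians were higher with stress in PFC and lower with stress in NAc, within wide overlap.

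A comparison over both regions, added after the values had been seen, used all 62 libraries with region in the model. Per the study's methods both regions were taken from the mice of each group, so most mice enter it with a library from each region. The fit had no term for the mouse, so its p-values take libraries of the same mouse as independent. The median of 75 members was 0.09 against -0.02 over all genes, with 48 above 0 (64.0%, against 47.8% of genes). No member passed an FDR of 0.05, against 0.00907% of genes. At an unadjusted p below 0.05, Mrps22 (1.23, SE 0.47, p = 0.0105) and Mrpl30 (0.50, SE 0.19, p = 0.0110) were higher (2 of 75, 2.67%, against 1.83%) and none was lower (against 1.80%). Without the 2 libraries that stood apart these values were 1.32 and 0.46.

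The regions of unstressed mice were compared next, as PFC against NAc. Most of these mice enter with a library from each region, and the fit again had no term for the mouse. No member passed an FDR of 0.05 in either direction, whereas 4.23% of 9932 genes were higher in PFC and 2.09% higher in NAc. Of 74 members, 48 had a level above that of NAc (64.9%, against 48.9% of genes), with a median log2 difference of 0.12 (all genes -0.02). At an unadjusted p below 0.05, 4 members were higher in PFC (5.41%, against 8.79% of genes) and none was higher in NAc (against 6.22%). These were Mrpl47, Mrpl43, Mrpl32 and Mrpl48, which are named after their values were seen. The count was 1 to 4 under other settings and 2 to 7 when single libraries were left out.

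Mrpl47, a large subunit protein at the tunnel exit with a bacterial counterpart, lies at chr3:32725397-32737605. Its lowest, median and highest levels in unstressed mice were 0, 81.4 and 126 CPM in PFC_CTR and 0, 17.8 and 58.0 CPM in Nac_CTR. Most PFC libraries lay above the NAc median, with overlap at the low end. The log2 difference was 1.56 (SE 0.58, unadjusted p = 0.00943, adjusted p = 0.112), and it was 1.68 (adjusted p = 0.0864) without the 2 libraries that stood apart.

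Mrpl43 differed by 0.72 (p = 0.0239), Mrpl32, whose protein is matured by the m-AAA protease, by 1.02 (p = 0.0301), and Mrpl48, of the central protuberance, by 0.81 (p = 0.0465). The levels of Mrpl48 ran from 42.4 to 153 CPM in PFC_CTR (median 64.8) and from 0.955 to 89.9 CPM in Nac_CTR (median 47.7). Those of Mrpl32 ran from 1.98 to 153 CPM (median 58.5) and from 0.955 to 87.5 CPM (median 35.5). Leaving out single libraries took p above 0.05 in 15 of 31 fits for Mrpl48, in 2 for Mrpl32 (without PFC_CTR replicate 2 or 9) and in 1 for Mrpl43 (without PFC_CTR replicate 11). In each case the PFC libraries reached higher. The low ends met for Mrpl32, whereas the lowest PFC library of Mrpl48 lay near the NAc median.

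Cell makeup differs between these dissections. The 7 oligodendrocyte markers, all counted, summed to a median of 3398 CPM in PFC_CTR (range 1506 to 6129) and 7152 CPM in Nac_CTR (range 5439 to 8798), and the neuronal markers differed as given above. In bulk tissue fewer cells of a type and less RNA per cell cannot be told apart, and the part of these markers in the member values was not tested. At an FDR of 0.05, where 4.23% of all genes were higher in PFC, 6 of 7 mtDNA protein genes, 12 of 79 cytosolic ribosomal protein genes and 10 of 75 nuclear OXPHOS subunits were higher in PFC, and 1 cytosolic ribosomal protein gene was higher in NAc. Whether the members differ from these lists was not tested.

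In stressed mice the same comparison gave 42 of 75 members above 0 (56.0%, against 48.15% of genes) and a median of 0.05 (all genes -0.03). No member passed an FDR of 0.05, against 4.23% higher in PFC and 2.07% higher in NAc of 9452 genes. At an unadjusted p below 0.05, Mrpl42, Mrpl20, Mrpl47, Mrpl30 and Mrpl15 were higher in PFC (5 of 75, 6.67%, against 8.78%) and none was higher in NAc (against 5.98%). The smallest p was that of Mrpl42, whose levels had medians of 149 CPM in PFC_mCRS and 86.9 CPM in Nac_mCRS, with ranges of 12.8 to 348 and 15.2 to 170 CPM. Its log2 difference was 0.82 (p = 0.00955, adjusted p = 0.115). Without PFC_mCRS replicate 7 it was 0.90 (adjusted p = 0.0397), and with a library's share of detected genes in the model it was 0.49 (p = 0.174, adjusted p = 0.632). Without the 2 libraries that stood apart it was 0.79 (p = 0.0134).

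Mrpl47 alone passed the unadjusted threshold in both comparisons, with 1.13 (p = 0.0362) in stressed mice and levels of 1.76 to 218 CPM in PFC_mCRS (median 70.7) and 0.847 to 83.1 CPM in Nac_mCRS (median 34.9). With a library's share of detected genes in the model its p in stressed mice was 0.0780, and p was above 0.05 in 6 of 31 fits without 1 library (PFC_mCRS replicate 13, 14 or 15 or Nac_mCRS replicate 1, 4 or 13). Mrpl43 was 0.72 in unstressed mice and -0.45 in stressed mice. The sign of the regional difference was the same in unstressed and stressed mice for 43 of 74 members (58.1%), against 67.6% of 9235 genes. Across members r was 0.35, and across all genes 0.57, as a description of values that are not independent.

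**Figure D4:**
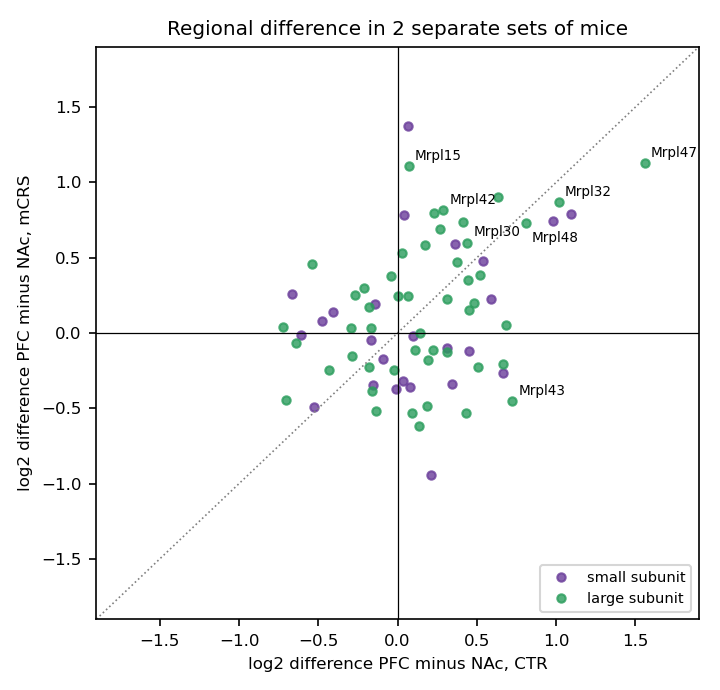
Log2 difference of PFC against NAc in stressed mice plotted over that in unstressed mice for 74 members, each point a gene. Mrpl47 lies at 1.56 and 1.13, and 43 of the points have the same sign in both.

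Over all 62 libraries, with treatment in the model, 1 member passed an FDR of 0.05 between regions (this comparison was added after the values had been seen and shares its libraries with those above). It was Mrpl47, higher in PFC by 1.34 log2 units (SE 0.40, 95% interval 0.55 to 2.12, adjusted p = 0.0128), or 1.44 (adjusted p = 0.00864) without the 2 libraries that stood apart. This fit had no term for the mouse either, so its p-values and interval take libraries of the same mouse as independent. No member was higher in NAc. This was 1.33% of 75 members, against 6.68% of 11025 genes higher in PFC and 4.65% higher in NAc. At an unadjusted p below 0.05, 8 members were higher in PFC (10.7%, against 11.2% of genes) and none in NAc (against 10.3%). The gene Mrps18c, for a small subunit protein with a bacterial counterpart, had group medians of 60.0 and 69.9 CPM in PFC and 21.7 and 39.6 CPM in NAc. Besides Mrpl47 the 8 were Mrpl30 (0.52, adjusted p = 0.0703), Mrpl48 (0.76, adjusted p = 0.0756), Mrpl32 (0.94), Mrpl42 (0.55), Mrpl20 (0.51), Mrps18c (0.93) and Mrpl33 (0.76). Of the large subunit members 31 of 50 lay above 0 (median 0.12), and of the small subunit members 12 of 25 (median -0.01). Over all members 57.3% lay above 0, against 45.1% of genes.

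Variation between libraries was large for single members and small for their sum. The median biological coefficient of variation of a member was 0.952 in PFC and 0.826 in NAc, against 0.970 and 0.866 for 1770 and 1654 other genes of the same abundance. The coefficient of variation of single members' CPM had medians of 68.3% in PFC_CTR, 81.2% in PFC_mCRS, 67.7% in Nac_CTR and 70.5% in Nac_mCRS. For the summed CPM of the members it was 13.8%, 14.3%, 11.2% and 10.4%.

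The variance of the sum divided by the sum of the members' variances would be 1 if the genes varied independently. It was 2.72 in PFC_CTR, 2.31 in PFC_mCRS, 2.01 in Nac_CTR and 1.62 in Nac_mCRS. For cytosolic ribosomal protein genes it was 18.03, 19.5, 9.66 and 5.70, and for nuclear OXPHOS subunits 10.8, 12.1, 6.94 and 5.13. The members are counted much less deeply than those lists, and the ratio depends on counting error, so that the lists are set side by side without a test.

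**Figure D5:**
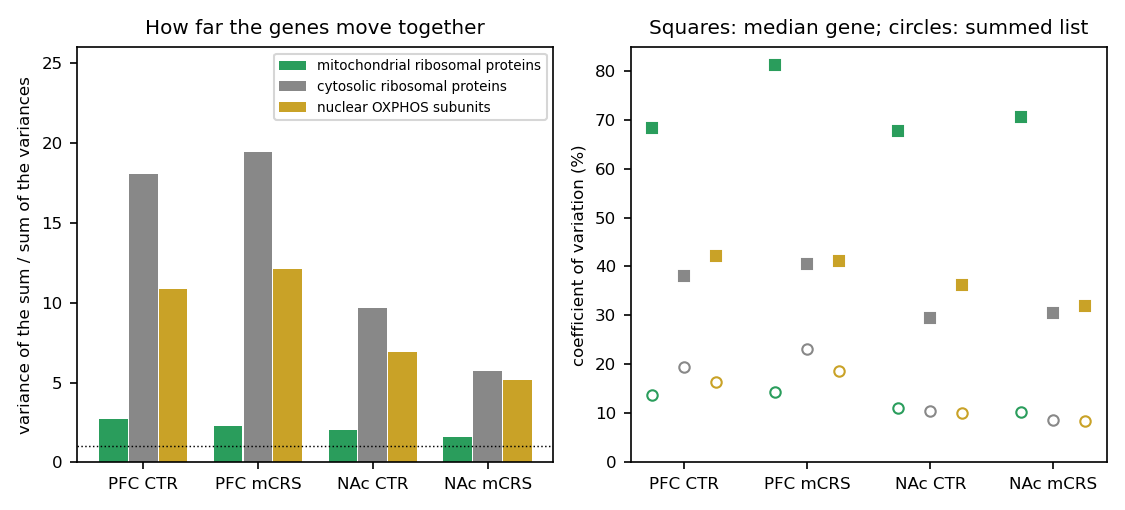
Variance of the summed CPM divided by the sum of single-gene variances, for the members, cytosolic ribosomal proteins and nuclear OXPHOS subunits in the 4 groups, beside the coefficient of variation in percent of the median single gene (squares) and of the summed list (circles). The members' ratios run from 1.62 to 2.72, and their single-gene variation lies between 67.7% and 81.2%.

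Other genes of mitochondrial translation were followed from lists of ribosomal subunits with other symbols, assembly factors, translation factors and tRNA synthetases. A last list held genes of mtDNA transcription and replication. In PFC none of the 4, 12, 11, 14 and 3 genes tested in these lists, in that order, passed an unadjusted p of 0.05 for stress. In NAc Aurkaip1, a small subunit protein, was higher (0.62, SE 0.25, p = 0.0140), and Guf1, a back-translocating elongation factor (-1.26, p = 0.0430), and Cars2, the mitochondrial cysteinyl-tRNA synthetase (-1.69, p = 0.0471), were lower. None of them passed an FDR of 0.05. Without the 2 libraries that stood apart the values were 0.59 for Aurkaip1 (p = 0.0244), -1.32 for Guf1 (p = 0.0409) and -1.53 for Cars2 (p = 0.0783). Leaving out single libraries took p above 0.05 in 13 of 32 fits for Guf1 and in 21 of 32 for Cars2.

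Between regions, Chchd1, the small subunit protein mS37, passed an FDR of 0.05 in stressed mice. Its lowest, median and highest levels were 31.2, 188 and 413 CPM in PFC_mCRS and 0.847, 52.5 and 217 CPM in Nac_mCRS. The groups overlapped, although the PFC median lay near the top of the NAc range. The log2 difference was 1.45 (SE 0.37, adjusted p = 0.00681), and in unstressed mice it was 0.71 (adjusted p = 0.327). Slirp, the partner of Lrpprc that protects mitochondrial mRNAs, was higher in PFC by 1.20 over all libraries (adjusted p = 0.0305), and Dhx30, a helicase of ribosome assembly, differed by -0.54 (adjusted p = 0.0424). Slirp had an adjusted p of 0.105 with a library's share of detected genes in the model, and Dhx30 of 0.0642 without the 2 libraries that stood apart. Nsun4, an rRNA methyltransferase of assembly, differed by -2.08 in unstressed mice (p = 0.0355) but did not pass an FDR of 0.05 (adjusted p = 0.272). Its p rose above 0.05 in 8 of 31 fits without 1 library. In the interaction the smallest p were those of Nars2 (2.58, p = 0.112), Tfb2m (-3.33, p = 0.0502) and Twnk (2.21, p = 0.157).

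Some members share their 3′ end with other genes, which matters for a method that reads ends. The last 500 bases of the longest protein-coding transcript of each member were searched, and other annotated ends were not. Windows of 70 bases, the length of a read, were compared with transcripts of other genes on both strands. Any copied window occurred in 20 members, and in 5 of them most windows were copied. For Mrpl23, 99.5% of windows were found in Mrpl23-ps1, and its counts of uniquely mapped reads are therefore uncertain. The other 4 lie over exons of a gene on the opposite strand, with 77.3% of windows shared by Mrpl19 and Gcfc2, 89.3% by Mrpl24 and Rrnad1, and 100% by Mrps25 and Nr2c2 and by Mrps34 and Mapk8ip3. An exon on the opposite strand overlapped the ends of 8 members in all, and one on the same strand those of 3, and the strand setting of the counting is not stated. Mrpl30, Mrpl43, Mrps22, Mrpl44 and Mrpl47 had no copied window and no overlap in the transcript searched. Of the other members named between regions, Mrpl15, Mrpl20, Mrpl32 and Mrpl48 also had neither. Mrpl42 had 18.3% of windows copied in Gm6419, and Mrps18c 10.7% in transcripts of other genes. Mrpl33 had 26.9% copied in Gm43809, which overlapped 37.0% of its end on the same strand. For 53 members neither a copied window nor an overlap was found in that transcript.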

How the data were processed

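RNA of PFC and NAc was profiled by BRB-seq in 62 libraries. The deposited values are raw counts per gene. Per the study's methods and the submitters' notes, the authors mapped reads with STAR to mm10 (GRCm38), counted uniquely mapped reads with HTSeq (0.9.1 in the submitters' notes, another version in the study's methods) and removed PFC samples of poor quality. Molecular identifiers were not sequenced, so counts are reads.

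Counts were tested with edgeR 4.0.16 (R 4.3.3): TMM normalization, filterByExpr by group, the quasi-likelihood test and Benjamini-Hochberg adjustment over all genes tested, in 7 comparisons. PFC and NAc stress used the libraries of 1 region, the comparisons of regions 1 treatment, and the interaction all libraries. CPM of single genes and of the gene lists are TMM-normalized, with a prior count of 2 for log2 CPM. The summed CPM of the cell type markers are scaled to library totals without TMM. Scripts were tested on simulated data. The labels do not tie libraries to mice, so all libraries were taken as independent, and p-values measure the spread between libraries. This holds also for the interaction and the comparisons of regions, although most mice gave a library from each region.

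Members and lists were chosen with earlier results of these data known. Named genes are members with an unadjusted p below 0.05 for stress, the 3 of smallest p for the interaction, members below an FDR of 0.05 between unstressed regions, the 3 most and 3 least counted, those removed by the filter, and at most 2 of each other list of mitochondrial translation. Genes named between regions otherwise were chosen after their values were seen. Subunit and marker lists were written by hand from general knowledge. Symbols and coordinates are from GENCODE for GRCm38, promoters from RefSeq. Alternatives were DESeq2 1.42.0, other normalizations and filters, covariates, the replicate number as a block and leaving out each library.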

Additional observations from a re-analysis of the deposited data

How the results depend on the processing

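Under the alternatives for the stress and interaction comparisons (DESeq2, RLE normalization, library sizes without mtDNA genes, other filters, covariates for the share of genes detected or the library numbering, 1 fit of all 62 libraries, and leaving out each library), the count of members below an FDR of 0.05 was 0 throughout, except that DESeq2 gave no adjusted p for any member in PFC stress and in stress over both regions. Between regions the count was 0 in unstressed mice under every alternative. In stressed mice it was 0 to 1 when single libraries were left out, and 1 without PFC_mCRS replicate 7 (Mrpl42). Over all libraries, 2 members were higher in PFC with DESeq2 (Mrpl47 and Mrpl48) and 2 with a filter of 10 counts or more in 50% or more of the libraries (Mrpl47 and Mrpl30), and 1 to 2 when single libraries were left out (2 without PFC_mCRS replicate 7, with Mrpl42 added). Mrpl47 kept an FDR below 0.05 in all of these (highest 0.0315). The median over the members ranged from -0.01 to 0.19 in PFC and from 0.08 to 0.18 in NAc. Mrpl42 in NAc, near 0, ranged from -0.052 to 0.12 as single libraries were left out. Mrps22 kept an unadjusted p below 0.05 in NAc and Mrpl43 in the interaction under every alternative run, whereas Mrpl44 did not in a fit of all 62 libraries (p = 0.0760). The cause of these changes was not tested.

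CTR and mCRS libraries of a region come from different mice, and equal numbers in PFC and NAc need not mean the same mouse. A check by number, or a block on it, therefore cannot show or remove pairing by mouse. Same-numbered libraries of the groups compared were checked for likeness only. Their deviations from the group means correlated with medians of 0.003 in PFC, 0.010 in NAc, -0.006 between regions in unstressed and -0.005 in stressed mice, with no pair above 0.1, and 2 of 15, 1 of 16, 0 of 15 and 2 of 15 libraries correlated best with their own number. With the replicate number as a block, the count of members below an FDR of 0.05 was 0 in the stress, interaction and single-treatment comparisons and 1 between regions over all libraries. The blocked medians were 0.04 in PFC, 0.08 in NAc, 0.03 in the interaction and 0.08 and -0.07 between regions in unstressed and stressed mice. The blocked p between regions was 0.0565 for Mrpl47, 0.0846 for Mrpl43 and 0.103 for Mrpl32 in unstressed mice, and 0.0519 for Mrpl47 and 0.130 for Mrpl15 in stressed mice. Over all libraries it was 0.0531 for Mrpl30 and 0.0534 for Mrpl42, and the blocked adjusted p of Slirp and Dhx30 no longer passed 0.05. For Mrpl30 in NAc it was 0.330. Most intervals reached past a change of 2-fold, and how far depth sets their width was not tested.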
